A study of Sus scrofa with 12 samples.

Results

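The enzymes of cholesterol synthesis were followed in liver mRNA of Jinhua (JH) and Landrace (LD) pigs, from HMGCS1 at the entry of the mevalonate pathway to DHCR7 near its end. Of the 8 enzymes listed (HMGCS1, MVD, IDI1, FDPS, FDFT1, SQLE, LSS and DHCR7), 5 were found by symbol among the 31694 rows of the mRNA tables. LSS and DHCR7 were not found by symbol, but rows carrying their RefSeq gene ID (LOC100625138 and LOC100627707) were present. These 2 rows were matched after the rule by symbol had left them out, and they are given beside the 5. No row was matched to MVD, which is not analysed here. All 7 genes passed the filter on low values.

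Liver was taken at 70 days of age from 3 JH and 3 LD pigs, all uncastrated males. JH is a slow-growing indigenous breed with high fat deposition and carries the label experiment, and LD is a fast-growing lean breed and carries the label control. Each pig gave 1 mRNA library and 1 small RNA library. The sources name no treatment and give neither sire, litter nor feeding state at sampling. With 3 pigs a breed, the limma p-values set the breed difference against the spread within breeds, moderated over all tested genes. They rest on these pigs alone.

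Cholesterol is built from acetyl-CoA. HMGCS1 makes HMG-CoA, from which mevalonate is formed, MVK, PMVK, MVD and IDI1 turn mevalonate into the active isoprene units, and FDPS joins these into farnesyl diphosphate, from which branches lead to dolichol, ubiquinone and prenylated proteins. FDFT1 commits farnesyl diphosphate to squalene, SQLE oxidises squalene, LSS closes the ring to lanosterol, and a further series of enzymes that includes DHCR7 gives cholesterol. Genes of this pathway are known targets of the transcription factor SREBP-2, and the liver is a main site of the synthesis. Activation of SREBP-2 when sterols are scarce depends on SCAP, and INSIG proteins hold it back when sterols are plentiful.

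The mRNA values are RPKM, reads scaled by gene length and by the reads of the library, so levels of different genes can be compared per length. Whole reads could be recovered from the RPKM values of all 7 genes. The totals behind the RPKM ranged from 5744910 reads in JH1 to 7914517 in LD3, with LD1 next lowest at 7100537. ALB, TTR, SERPINC1 and other hepatocyte markers were abundant in every library, with a summed level of at least 42245 RPKM, although the hepatocyte gene APOB was listed at 0 in all 6. Ribosomal RNA (RN18S) was lowest in JH2, at 1570 RPKM, and highest in JH3, at 62257 RPKM. The part of this spread in the results was not tested.

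HMGCS1, the enzyme at the entry, had 20.4 RPKM in JH1, 88.2 in JH2 and 260.1 in JH3, against 245 in LD1, 274 in LD2 and 132 in LD3. These values stand for 416 reads in JH1 and 7139 in JH3. JH1 and JH2 were below every LD pig, but JH3 was above LD1 and LD3, so the breeds overlapped. The highest JH value was 12.7-fold the lowest, against 2.07-fold within LD. Expressed as JH over LD on the log2 scale, as are all fold changes here, the difference was -1.41 (SE 0.76, 95% interval -3.13 to 0.30, adjusted p = 0.373 from limma).

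IDI1, which isomerises isopentenyl diphosphate, was far lower than any other enzyme listed, with 0.125, 1.11 and 0.464 RPKM in JH1, JH2 and JH3 and 3.94, 2.27 and 2.36 RPKM in LD1, LD2 and LD3. These are 1, 12 and 5 reads in JH and 39, 25 and 26 reads in LD. All JH values lay below all LD values. Counting error is wide here, since the exact 95% Poisson interval of JH1 reached from 0.00316 to 0.696 RPKM and that of JH2 from 0.573 to 1.94 RPKM. The level of IDI1 was between 0.178% and 1.78% of that of HMGCS1 in the same library. The RefSeq genes used to match LSS and DHCR7 hold no IDI1 by symbol. Whether the row named IDI1 covers the whole gene was not tested. The log2 fold change of IDI1 was -2.42 (SE 0.58, adjusted p = 0.0705 from limma) on the log2(RPKM + 0.1) scale. For a gene this low its size depends on the value added before the log. It was -1.32 with 1 added and -2.74 with 0.01 added.

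FDPS, the synthase of farnesyl diphosphate, had 88.3 RPKM in JH1, 71.7 in JH2 and 133 in JH3, against 242 in LD1, 475 in LD2 and 185 in LD3. Every JH pig was below every LD pig, and JH3 was the highest of its breed. The mean was 97.7 ± 31.8 RPKM for JH and 301 ± 153 RPKM for LD (SD, n = 3 each), 3.08-fold higher in LD. The log2 fold change was -1.55 (SE 0.38, 95% interval -2.41 to -0.69, adjusted p = 0.0754 from limma).

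FDFT1, squalene synthase, was the most abundant of the listed enzymes in all 3 JH libraries, with 110.1 RPKM in JH1, 154 in JH2 and 311 in JH3. The LD pigs had 234, 274 and 201 RPKM in LD1, LD2 and LD3. JH3 was the highest of all 6 pigs, and the breeds overlapped. The log2 fold change of -0.43 (SE 0.37, 95% interval -1.26 to 0.41, adjusted p = 0.585 from limma) was the smallest of the 7.

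SQLE, the oxygenase that makes squalene epoxide, had 22.9 RPKM in JH1 and 28.7 in JH2 but 71.2 in JH3, against 63.3, 79.1 and 65.7 RPKM in LD1, LD2 and LD3. JH3 lay inside the LD range, while the other JH pigs were well below it. The LD values were close together, the highest being 1.25-fold the lowest, against 3.10-fold within JH. Its log2 fold change was -0.93 (SE 0.40, adjusted p = 0.259 from limma). Without JH3 it was -1.42 and passed both limits (adjusted p = 0.0262 from limma).

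LSS, which cyclises squalene epoxide to lanosterol, had 47.0, 32.2 and 35.5 RPKM in JH1, JH2 and JH3 and 66.2, 106 and 60.7 RPKM in LD1, LD2 and LD3. The breeds did not overlap, and here JH3 was not the highest JH pig. For LSS the log2 fold change was -0.99 (SE 0.29, adjusted p = 0.12 from limma). Under quantile normalization it was -1.16 and LSS was called (adjusted p = 0.0456 from limma).

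DHCR7, the reductase that makes cholesterol from 7-dehydrocholesterol, had 46.6 RPKM in JH1, 47.8 in JH2 and 56.0 in JH3. The LD pigs had 149.8, 287 and 137 RPKM in LD1, LD2 and LD3. The JH pigs differed by 1.20-fold among themselves, so that all 3 lay far below the lowest LD pig. The mean was 50.2 ± 5.11 RPKM for JH and 191 ± 83.1 RPKM for LD (SD, n = 3 each), 3.81-fold higher in LD. DHCR7 was a differentially expressed gene (DEG), lower in JH by a log2 fold change of -1.85 (SE 0.31, 95% interval -2.55 to -1.15, adjusted p = 0.0226 from limma). Its fold change stayed between -2.05 and -1.51 whichever library was dropped, but the adjusted p rose above the limit without JH1, JH2, LD1 or LD2, to between 0.0552 and 0.0828.

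**Figure D1:**
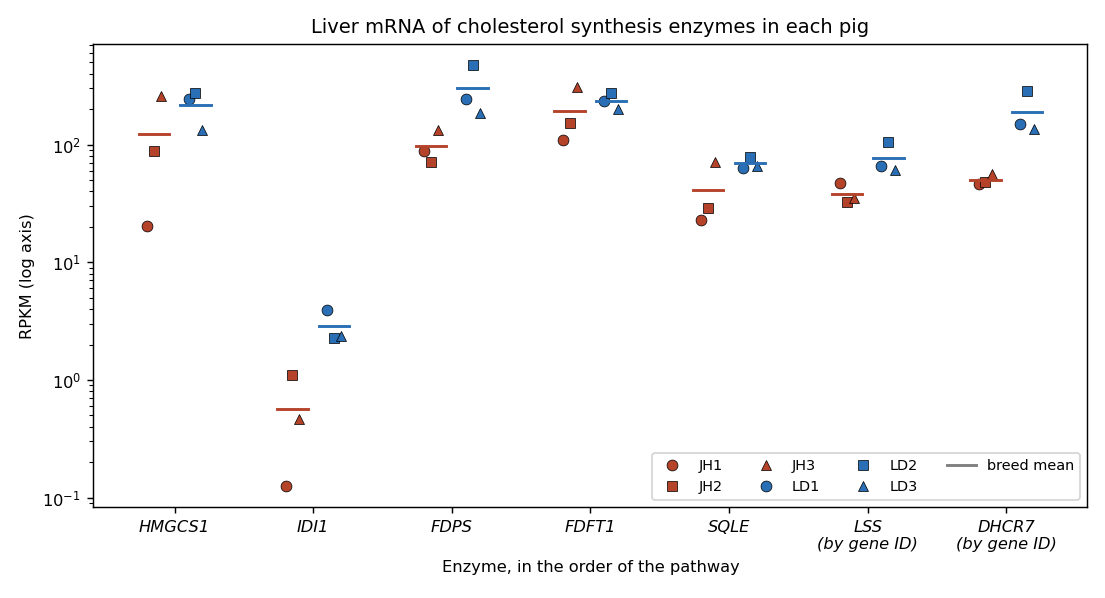
RPKM (log axis) of the 7 enzymes in the order of the pathway, with a point for each pig (red JH, blue LD, the marker shape gives the pig's number) and a bar for the mean of each breed. HMGCS1 spans 20.4 to 260.1 RPKM within JH, while the 3 JH values of DHCR7 lie between 46.6 and 56.0 RPKM, below all LD values.

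DEGs had an adjusted p under 0.05 in limma and a log2 fold change beyond 1 in either direction. Of the 5 enzymes found by symbol, 0 were DEGs, while of the 12993 tested genes 2.39% were DEGs, 1.36% lower and 1.02% higher in JH. At an unadjusted p under 0.05, IDI1, FDPS and SQLE were lower in JH, that is 3 of 5 against 9.51% of all tested genes, and none was higher, against 8.35% (17.9% in either direction). The log2 fold change was below 0 in 5 of 5, against 47.1% of all tested genes, and JH lay wholly below LD in 2 of 5 (IDI1 and FDPS), against 12.5%. The median log2 fold change of the 5 was -1.41, beside 0.04 over all tested genes. With LSS and DHCR7 counted, 1 of 7 was called and JH lay wholly below LD in 4 of 7. With limma's voom on the recovered reads 1 of the 5 was called, FDPS (adjusted p = 0.0362 from limma). In an exact permutation test of a single gene, 3 pigs against 3 cannot give a two-sided p below 0.1, which is the value reached by IDI1, FDPS, LSS and DHCR7, whereas HMGCS1 and SQLE gave 0.3 and FDFT1 gave 0.5.

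In HMGCS1, IDI1, FDFT1 and SQLE the JH pigs differed from one another more than the LD pigs did, and in FDPS, LSS and DHCR7 less. The mean deviation of the 5 enzymes from their own means, on the log2(RPKM + 0.1) scale, was -1.59 in JH1, -0.58 in JH2 and 0.15 in JH3, against 0.76 in LD1, 0.94 in LD2 and 0.33 in LD3. JH1 was the lowest pig. The place of JH3 turned on IDI1 and its few reads, since without IDI1 the means were -1.37, -0.72 and 0.47 in the JH pigs and 0.52, 0.94 and 0.16 in the LD pigs, with JH3 above LD3. The median log2 fold change without IDI1 was -1.17. JH1 was the lowest of the 3 JH pigs in 4 of the 5 enzymes, and JH3 the highest in 4 of the 5. Among all tested genes the corresponding shares were 21.6% and 18.1%. Both held in 3 of the 5 (HMGCS1, FDFT1 and SQLE), against 8.76% of all tested genes. JH1 and JH3 were singled out from these same values. The 5 enzymes are readings of the same 3 JH pigs, so these counts are not a test. Within JH the log2 range of an enzyme had a median of 1.63 over the 5, beside 0.74 over all tested genes, and within LD it had a median of 0.77, beside 0.62. A log2 range of at least 1 was seen within JH in 4 of the 5 (32.1% of all tested genes) and within LD in 2 of the 5 (22.0%). No covariate of the individual pigs is given in the labels. JH1 had the fewest reads and the fewest genes above 0 (16080) of the 6 libraries, and JH3 the highest RN18S. What sets JH1 and JH3 apart was not tested.

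**Figure D2:**
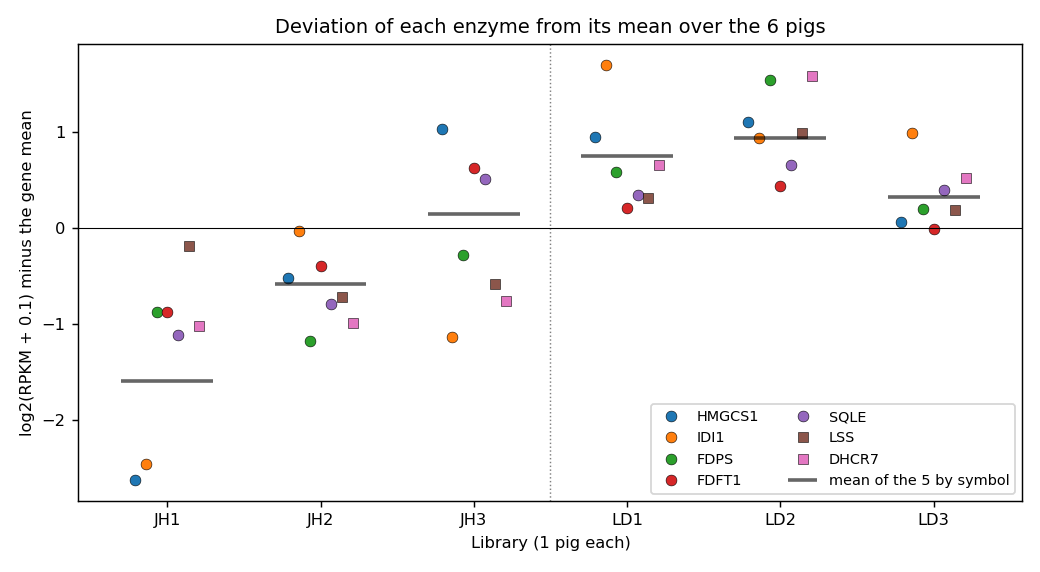
Deviation of log2(RPKM + 0.1) from the mean of each gene over the 6 libraries, for the 5 enzymes found by symbol (circles) and LSS and DHCR7 (squares), with a bar for the mean of the 5 in each pig. The mean is -1.59 in JH1 and 0.15 in JH3, and in JH3 HMGCS1, FDFT1 and SQLE lie above 0 while IDI1, FDPS, LSS and DHCR7 lie below it.

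Which pigs were included moved the size of the difference. Without JH1 the log2 fold change of HMGCS1 was -0.45 and that of FDFT1 was -0.10, and the median of the 5 was -0.61. Without JH3 the fold change of HMGCS1 was -2.28 and that of FDFT1 was -0.85, the median was -1.80, and of the 5 found by symbol FDPS and SQLE were called. Without JH2 the only one of the 5 called was IDI1, at -3.01 (adjusted p = 0.0349 from limma), and without JH1, LD1, LD2 or LD3 none of the 5 was called. DHCR7 was called without JH3 (adjusted p = 0.0286 from limma) and without LD3 (adjusted p = 0.0349 from limma). In every fit with a library left out, all 5 fold changes were below 0.

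**Figure D3:**
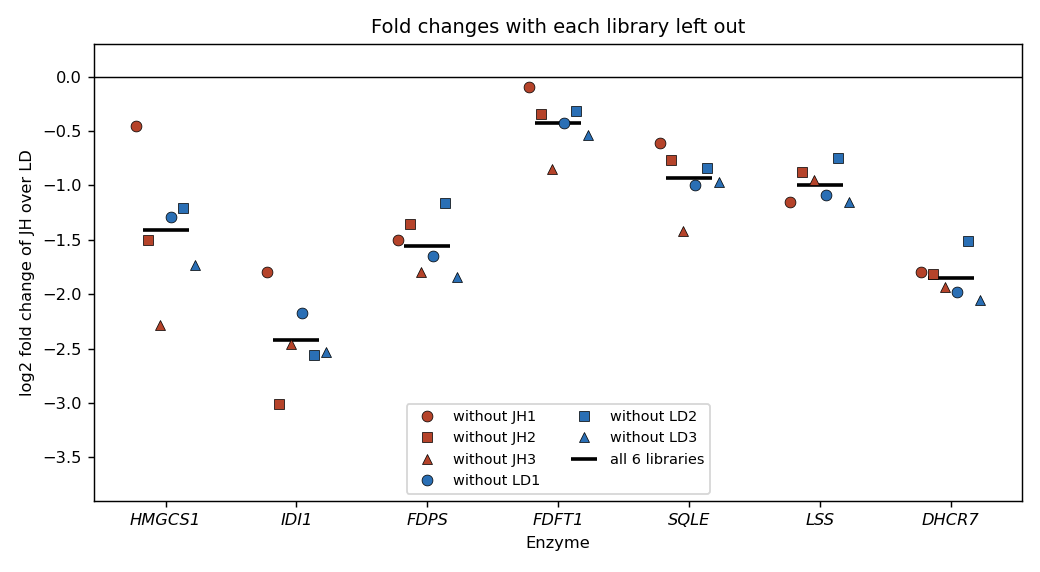
Fold change on the log2 scale (JH over LD) of each enzyme in fits that left out 1 library (colour and shape give the library left out), with a black bar for the fit to all 6 libraries. HMGCS1 moves from -0.45 without JH1 to -2.28 without JH3, whereas DHCR7 stays between -2.05 and -1.51.

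The other genes of the pathway were taken as a list of 13, of which 11 had a row and were tested. IDI2 and LBR were not found. Of the 11, 9 had a log2 fold change below 0 (47.1% of all tested genes) and 2 above (MVK and GGPS1), with a median of -0.64. DEGs were 2 of the 11, TM7SF2, a sterol C14 reductase, and EBP, the sterol isomerase, both lower in JH (1.36% of all tested genes). At an unadjusted p under 0.05, 5 of the 11 were lower, against 9.51% of all tested genes. JH lay wholly below LD in 5 of 11, against 12.5%.

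TM7SF2 resembled DHCR7, with 116 to 136 RPKM in the JH pigs and 268 to 577 RPKM in the LD pigs. Its log2 fold change was -1.54 (SE 0.31, adjusted p = 0.042 from limma). EBP had 109 to 132 RPKM in JH and 235 to 362 RPKM in LD, a difference of -1.20 on the log2 scale (SE 0.25, adjusted p = 0.0459 from limma). Both calls were lost when any library other than JH3 was left out, with the adjusted p of TM7SF2 then between 0.0907 and 0.114 and that of EBP between 0.0917 and 0.172, and both were lost with the replicate number as a block (adjusted p = 0.0505 and 0.0607 from limma).

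CYP51, the sterol demethylase that acts on lanosterol, and MSMO1 and SC5D, which oxidise later sterols, also had all JH values below all LD values. Their log2 fold changes were -1.20 for CYP51, -1.38 for MSMO1 and -1.29 for SC5D. None of the 3 passed the adjusted limit, with adjusted p of 0.0862, 0.0847 and 0.066 from limma in the same order, but all 3 were called without JH3 and with voom. The mean level of MSMO1 in LD, 635 ± 150.1 RPKM (SD, n = 3), was above that of each listed enzyme.

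Along the pathway the overlap of the breeds was uneven. Of 8 genes up to squalene epoxide (ACAT2, HMGCS1, MVK, PMVK, IDI1, FDPS, FDFT1 and SQLE), JH lay wholly below LD in 2. Of 9 genes from lanosterol synthesis on (LSS, CYP51, TM7SF2, MSMO1, NSDHL, HSD17B7, EBP, SC5D and DHCR7) it did so in 7. Over all tested genes the share was 12.5%. The median log2 range within JH was 1.26 in the earlier and 0.54 in the later group, while the medians within LD were 0.91 and 0.86. JH3 reached the LD range in 5 of the 8 earlier and 2 of the 9 later genes. The median log2 fold changes were -0.79 and -1.20. GGPS1, on a side branch, was left out. This division of the pathway was drawn after the values were seen, and the difference between the groups was not tested.

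**Figure D4:**
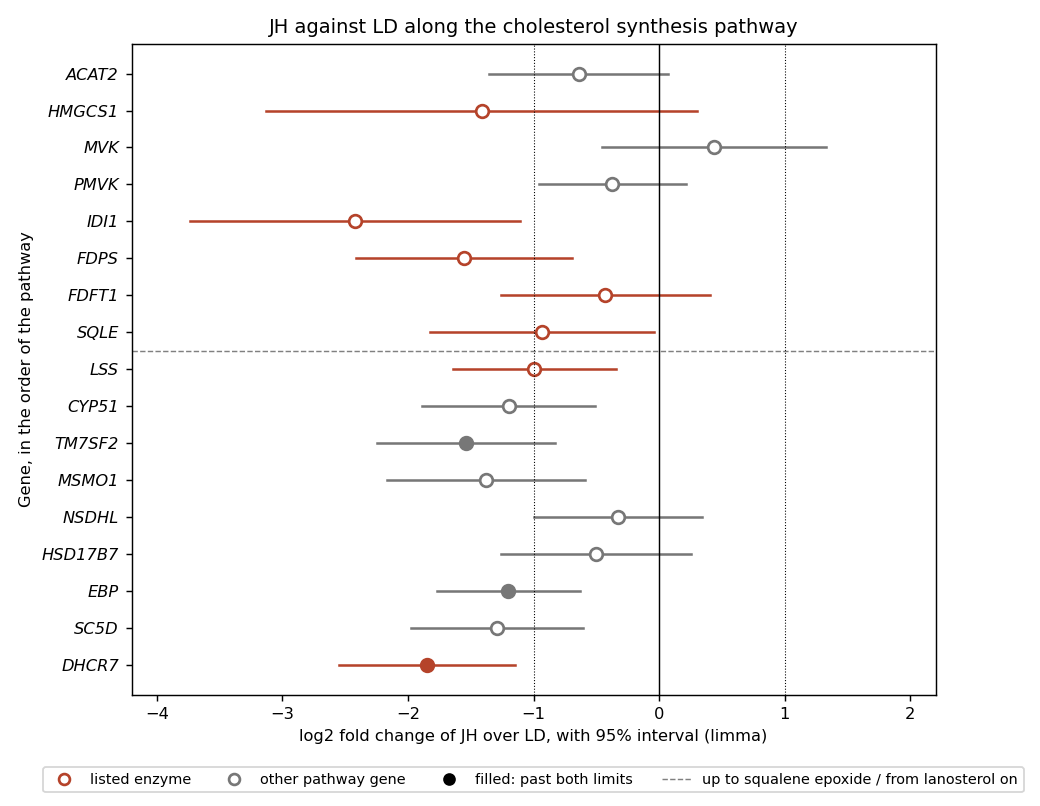
log2 fold change (JH over LD) with its 95% interval from limma for 17 genes in pathway order (red listed enzymes, gray other genes, filled points past both limits, dotted lines at the fold change limit), with a dashed line between squalene epoxide and lanosterol. The interval of HMGCS1 (-3.13 to 0.30) is wide, and the filled points are TM7SF2, EBP and DHCR7, all left of the line at -1.

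Other genes tied to sterol sensing or uptake were counted from a list of 15, of which 11 were tested. SREBF2 and SREBF1, which encode the SREBP factors, were listed at 0 in all 6 libraries, as was APOB, so their levels are not given by these values. Of the 11, 0 were DEGs in limma (2.39% of all tested genes), and INSIG1 alone was lower in JH where p was left unadjusted (under 0.05), against 9.51% of all tested genes. INSIG1 had 54.5, 31.6 and 51.1 RPKM in JH and 46.9, 93.4 and 113 RPKM in LD, a difference of -0.83 on the log2 scale (adjusted p = 0.28 from limma), and the log2 fold change of SCAP was 0.25 (adjusted p = 0.756 from limma).

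Fatty acid synthesis draws on the same acetyl-CoA and is governed mainly by SREBP-1c. Of 12 genes on a list for that pathway, 9 were tested. All 9 had a log2 fold change below 0 (47.1% of all tested genes), between -3.72 and -0.48 with a median of -1.56. DEGs were 3 of the 9 (2.39% of all tested genes), and JH lay wholly below LD in 4 of the 9 (12.5%). ACACB, an acetyl-CoA carboxylase named after its values were seen, was not tested because of its low level and had every JH value above every LD value, with 0.599, 0.562 and 0.415 RPKM in JH and 0.0323, 0.102 and 0.029 RPKM in LD. These are 30, 38 and 28 reads in JH and 2, 7 and 2 reads in LD. The mean deviation of the 9 was -0.996 in JH1, -1.44 in JH2 and -0.37 in JH3, so JH3 was the highest JH pig in this list as well, but JH2 was the lowest.

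Among 9307 tested genes with a symbol, the 10 with the profile most like the mean profile of the 5 enzymes were SH2D4A, MUC20, NAV2, CYP7A1, TF, MSMO1, PYGM, PKLR, GLDC and KIRREL. Likeness was the root mean square difference, over the 6 libraries, of log2(RPKM + 0.1) centred on the mean of each gene. It was between 0.20 and 0.26 for these 10, against a median of 0.98 over all genes compared and between 0.33 and 0.82 for the 5 enzymes themselves. Levels were near the added 0.1 in JH1 for SH2D4A (0.088 RPKM), MUC20 (0.092), PYGM (0.117) and KIRREL (0.188), so their likeness is uncertain. MUC20 reached 0.5 RPKM, the limit of the filter, only in LD. CYP7A1, the rate-limiting enzyme of bile acid synthesis, had 6.68, 12.9 and 28.5 RPKM in JH1, JH2 and JH3 and 31.5, 44.8 and 36.2 RPKM in LD1, LD2 and LD3. TF, transferrin, which is listed among the hepatocyte markers, had 3829, 6392 and 10274 RPKM in JH and 14756, 13325 and 13344 RPKM in LD. Of the 10, GLDC, a glycine-cleaving enzyme, was the only DEG (adjusted p = 0.0375 from limma).

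In whole liver, fewer cells of a type and less RNA per cell cannot be told apart. The summed RPKM of 8 hepatocyte markers was 42245 to 47306 in JH and 60872 to 77694 in LD, a sum dominated by ALB. Of the 7 tested markers, 4 had all JH values below all LD values, against 12.5% of all tested genes. HNF4A and TAT had log2 fold changes above 0 (0.22 and 0.13) and overlapped between the breeds, as did TTR. Summed stellate or fibroblast markers were at 52.3 to 85.6 RPKM in JH and 169 to 337 in LD. Of these markers 6 of 6 had a fold change below 0, against 47.1% of all tested genes. The sums were 50.01 to 52.2 in JH and 72.6 to 78.4 RPKM in LD for 5 endothelial markers, 3.79 to 6.84 and 12.08 to 24.96 RPKM for 5 bile duct markers (KRT7 listed at 0), and 90.1 to 122 and 212 to 393 RPKM for 2 erythroid markers. Single markers of these lists (DCN, STAB2, LYVE1 and ALAS2) overlapped between the breeds, and HBB dominated the erythroid sum. JH lay wholly below LD in 5 of 6 tested stellate or fibroblast, 3 of 5 endothelial, 3 of 3 bile duct and 1 of 2 erythroid markers (12.5% of all tested genes). In the same order 3, 0, 1 and 1 were DEGs lower in JH (1.36% of all tested genes), and 0 were higher. No hepatocyte marker was a DEG. Macrophage sums (444 to 917 and 658 to 764 RPKM, 5 markers, CD163 listed at 0), lymphocyte sums (17.0 to 75.4 and 23.6 to 26.6 RPKM, 5 markers) and adipocyte sums (0.259 to 1.75 and 0.612 to 2.33 RPKM, 3 markers, LEP listed at 0) overlapped between the breeds. The part of these markers in the breed difference of the enzymes was not tested.

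The small RNA libraries of the same pig names gave another readout. The values are RPM, reads of a miRNA scaled by the clean reads of the library, of which each had between 10672375 and 13932322. Of the listed miRNAs tied to sterols, miR-33 was not found, and ssc-miR-122, ssc-miR-182, ssc-miR-183, ssc-miR-96-5p and ssc-miR-185 were tested. ssc-miR-182, ssc-miR-183 and ssc-miR-96-5p come from a single cluster that SREBP-2 is known to induce. Of all 241 tested miRNAs 9.54% were DE miRNAs, 8.71% lower in JH, at an adjusted p under 0.05 and the same fold change limit.

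For ssc-miR-182 the JH pigs had 25.9, 55.5 and 41.4 RPM and the LD pigs had 164, 91.6 and 126 RPM, a difference of -1.65 on the log2 scale (adjusted p = 0.00839 from limma). For ssc-miR-183 the values were 3.56, 3.44 and 3.65 RPM in JH and 16.9, 10.1 and 7.46 RPM in LD, a difference of -1.49 on the log2 scale (adjusted p = 0.0122 from limma). Both miRNAs were lower in JH, with no overlap between the breeds, and both calls were lost under quantile normalization (adjusted p = 0.0908 from limma for each), that of ssc-miR-183 also without LD1 (adjusted p = 0.0526 from limma) and with a pseudocount of 5, where its difference was -0.91 on the log2 scale. In neither was JH3 near the LD pigs.

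The ssc-miR-96-5p values were 1.03 and 1.07 RPM in JH1 and JH2, a listed 0 in JH3, and 3.67, 1.97 and 2.44 RPM in LD. The lowest miRNA values listed above 0 were of 10 reads, so the listed 0 can hide reads, and its difference did not pass the limit (adjusted p = 0.0579 from limma). ssc-miR-185 had 124.8 ± 28.7 RPM for JH and 199.8 ± 19.0 RPM for LD (SD, n = 3 each), with no overlap and a difference of -0.70 on the log2 scale (adjusted p = 0.0644 from limma). The most abundant of the 5, ssc-miR-122, which is specific to liver and whose inhibition is known to lower plasma cholesterol, had a log2 fold change of 0.01 (95% interval -0.53 to 0.55, adjusted p = 0.979 from limma).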

How the data were processed

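Per the file headers the mRNA tables hold RPKM. The authors filtered single-end reads of 50 bp, used Tophat 2.0.13 for alignment against Sus scrofa 10.2, and counted reads per gene with gfold. For miRNA the authors deposited RPM, annotated with miRBase and other databases. Neither table holds read counts. Library totals and whole reads were recovered by a search for the total and gene length that make the 6 values of a gene whole, which resolved 15956 of 19614 genes above 0 (81.4%). On simulated data 2996 of 3000 genes were resolved, 99.4% of them exactly. The miRNA values were all whole reads, within 0.05 of a read, once scaled by a library total.

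Breeds were compared in limma 3.58.1 (R 4.3.3) with its trend option. For mRNA the scale was log2(RPKM + 0.1), with 12993 genes that reached 0.5 RPKM in 3 or more libraries. For miRNAs the scale was log2(RPM + 0.5), with 241 that reached 1 RPM in 3 or more. Adjusted p are Benjamini-Hochberg over all tested genes or miRNAs. The test was also run on simulated data with known changes, and the share of these that it called is not reported here. The limits for DEGs (adjusted p of 0.05, log2 fold change of 1) are those in the methods of the study, with limma in place of DEGseq. Tables were made in Python 3.11.15 with scipy 1.17.1.

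The enzymes and gene lists were chosen with earlier results of these data known. Genes named are the listed enzymes, other pathway and SREBP genes at an unadjusted p under 0.05 with SREBF1, SREBF2, SCAP and INSIG1, and the 10 genes of most like profile. Other genes appear in counts or markers. Some genes of these lists are not reported here, and the lists are counted without them. LSS, DHCR7, MBTPS2, PNPLA3, KRT7 and KRT19 were matched by RefSeq gene ID (assembly Sscrofa11.1). A search of promoters for motifs had been planned and was not made, since no sequence was used here. Alternatives were other pseudocounts and filters, quantile and median scaling, a replicate block, voom on recovered reads, no fold change limit and each library left out. Counting LSS and DHCR7 as members and leaving out IDI1 were added after the values were seen.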

Additional observations from a re-analysis of the deposited data

How the results depend on the processing

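The fold changes of the 5 enzymes found by symbol were below 0 in all 14 refits that tested them (IDI1 was not tested under the filter of an RPKM of at least 1 in all 6 libraries). The number of them called was 0 with all libraries and 1 with a pseudocount of 1 (IDI1), with voom on recovered reads (FDPS) and with LSS and DHCR7 counted (DHCR7), and from 0 to 2 with each library left out. Their median log2 fold change then ranged from -1.80 to -0.61. The number of other pathway genes called, 2 with all libraries, was 0 with a pseudocount of 0.01, with no filter on low values and with the replicate block, 5 with voom, and 0 to 5 with a library left out. Over all tested genes 310 were called, against 199 with a pseudocount of 0.01, 200 with no filter and 63 to 403 with a library left out. Dropping the fold change limit called no further enzyme, since no enzyme found by symbol had an adjusted p under 0.05. Reversed directions were those of SCAP without LD3 (-0.044, in a range up to 0.58 without LD2) and of ssc-miR-122, which ranged from -0.25 without JH2 to 0.21 with 1 library left out and was -0.01 without LD1 and -0.06 without LD3. JH and LD libraries of the same number had deviations from their breed means that correlated with r = -0.02, 0.05 and 0.18 across genes, so the numbers were not taken as pairs. The replicate block gave 253 DEGs and changed no call among the 5 enzymes. Depth limits IDI1 (1 to 39 reads), and 3 pigs a breed limit all tests.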

Other observations

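Ratios of 2 enzymes within a library do not change when the whole library is multiplied by a single factor. Quantile normalization can change them. The ratio of HMGCS1 to FDPS was 0.231 in JH1, 1.23 in JH2 and 1.95 in JH3, and 1.01, 0.576 and 0.714 in LD1, LD2 and LD3, so the spread among the JH pigs (8.45-fold) was wider than among the LD pigs (1.75-fold). The ratio of SQLE to FDFT1, adjacent steps, was 0.208, 0.186 and 0.229 in JH and 0.271, 0.289 and 0.326 in LD, with no overlap although the levels of both genes overlapped. The ratio of FDPS to FDFT1 was 0.801, 0.465 and 0.428 in JH and 1.04, 1.73 and 0.921 in LD, again with no overlap. The ratio of HMGCS1 to FDPS did overlap between the breeds. So did the ratios to EBP of HMGCS1 (0.155 to 2.0 in JH, 0.564 to 0.919 in LD) and of SQLE (0.174 to 0.547 in JH, 0.218 to 0.28 in LD). These ratios were chosen after the values were seen and were not tested.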
